A study of Mus musculus with 12 samples.

Results

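The genes described here are 46 that encode non-collagen proteins of the extracellular matrix: matricellular and adhesive glycoproteins, small leucine-rich and large proteoglycans, elastic fibre genes, lysyl oxidases and a few glycoproteins of mineral, cartilage and basement membrane. They were chosen by gene symbol from the 55487 genes of the deposited expression table, with earlier results of these data known. All 46 were found in that table. RNA-seq was run on 12 libraries of cultured mouse cochlear glial cells, 3 for each of 4 groups, to compare glial spheres with cells taken towards neurons by small molecules. All groups shared the same source: glial cells from the cochlear modiolus of postnatal day 4 mice of a mixed C57Bl6 and FVB/N background, several mice of both sexes pooled.

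The sphere group was grown in suspension in DMEM/F12 medium with B27 and N2 supplements, EGF at 20 ng/ml, bFGF at 10 ng/ml, IGF at 50 ng/ml and heparan sulfate at 50 ng/ml. For the other groups, spheres were plated on poly-L-ornithine with laminin at 10 ng/ml and kept for 14 days. SCDM was DMEM/F12 with B27 and N2, BDNF at 50 ng/ml and NT3 at 50 ng/ml, and SCDM/FGF was that medium with bFGF at 100 ng/ml. FIBCL was Neurobasal medium with B27, N2 and GlutaMax, forskolin at 20 µM, ISX9 at 20 µM, the bromodomain inhibitor I-BET at 1 µM, the GSK3 inhibitor CHIR99021 at 10 µM, LIF at 1000 U/ml and bFGF, which the labels give both at 50 and at 100 ng/ml, without BDNF or NT3 in its list. The columns of this group are headed FIBC in the table, a name that the study also uses for the mixture without LIF, so that LIF in these libraries rests on the labels. FIBCL and SCDM thus differed in base medium, growth factors and small molecules together. The labels call the libraries biological replicates but do not say whether each had its own culture, so that p-values here measure the spread between these libraries only.

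Matrix glycoproteins and proteoglycans are secreted and assemble around cells, where they bind collagens, growth factors and integrins. Small leucine-rich proteoglycans coat collagen fibrils, fibrillins and fibulins build the scaffold on which elastin is laid down, and lysyl oxidases cross-link elastin and collagen. In peripheral nerve and ganglia such proteins come mainly from fibroblasts, perineurial cells and glia, while neurons and glia of the central nervous system make the lecticans brevican and neurocan.

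Values are TPM, the share of each gene among all transcripts after adjustment for transcript length, so that levels of different genes can be compared on this scale. The table held no read counts and the depth of the libraries is unknown. TPM summed to between 982067 and 994845 per library in spheres, SCDM and SCDM/FGF and to between 899295 and 911076 in FIBCL, and the values were rescaled between libraries before testing. Differences are given as log2(scaled TPM + 1) with the standard error (SE) of limma, a scale that understates the change of genes at low levels. A difference was called at an adjusted p under 0.05, over 16016 genes tested, and a size of at least 1.5 on that scale. Against SCDM the median of all genes in FIBCL was -0.07 after rescaling and -0.40 without it.

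The labelled cell types were checked against lists of markers. In spheres, 10 Schwann and satellite glial markers summed to between 713 and 715 TPM, with Sox10 present in every library, and the 14 fibroblast and mesenchymal markers summed to between 759 and 839 TPM. In FIBCL the glial list summed to between 14.1 and 19.9 TPM, while the 10 neuronal markers summed to between 372 and 410 TPM, against at most 27.8 TPM in any other library; 8 of the 8 tested were called higher than in SCDM, and Dcx and Elavl4 stayed under 1 TPM in all 12 libraries. Macrophage markers (8 genes) summed to between 1325 and 1428 TPM in SCDM and between 1314 and 1498 TPM in SCDM/FGF. Their sum was 108 to 125 TPM in spheres and 131 to 149 TPM in FIBCL. Cd68 made up most of the FIBCL sum, and 5 of the 8 genes were under 1 TPM in every FIBCL library. Against spheres, 4 of the 8 were called lower in FIBCL and 1 higher, with a median of -1.21. Markers of other cell types were thus present, and in bulk RNA fewer cells of a type and less RNA per cell cannot be told apart.

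Taken as a whole, the matrix genes were far less abundant in FIBCL than in the other groups. Their summed TPM was 44537, 44883 and 44139 in the sphere libraries and 42409, 44655 and 45304 in SCDM. It was 59320.0, 59789 and 56990.0 in SCDM/FGF and 9641, 9626 and 9246 in FIBCL, so that the FIBCL libraries lay below all 9 others. As a share of all TPM, that was 4.30% to 6.07% in the 9 other libraries and 1.03% to 1.06% in FIBCL. A few genes made up most of each sum: in spheres Mgp gave 38.0% and Spp1 33.2%, and in SCDM Mgp gave 33.5% and Sparc 14.2%. In SCDM/FGF Spp1 alone gave 51.5%, and in FIBCL it gave 73.9%, followed by Fn1 at 10.7%.

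**Figure D1:**
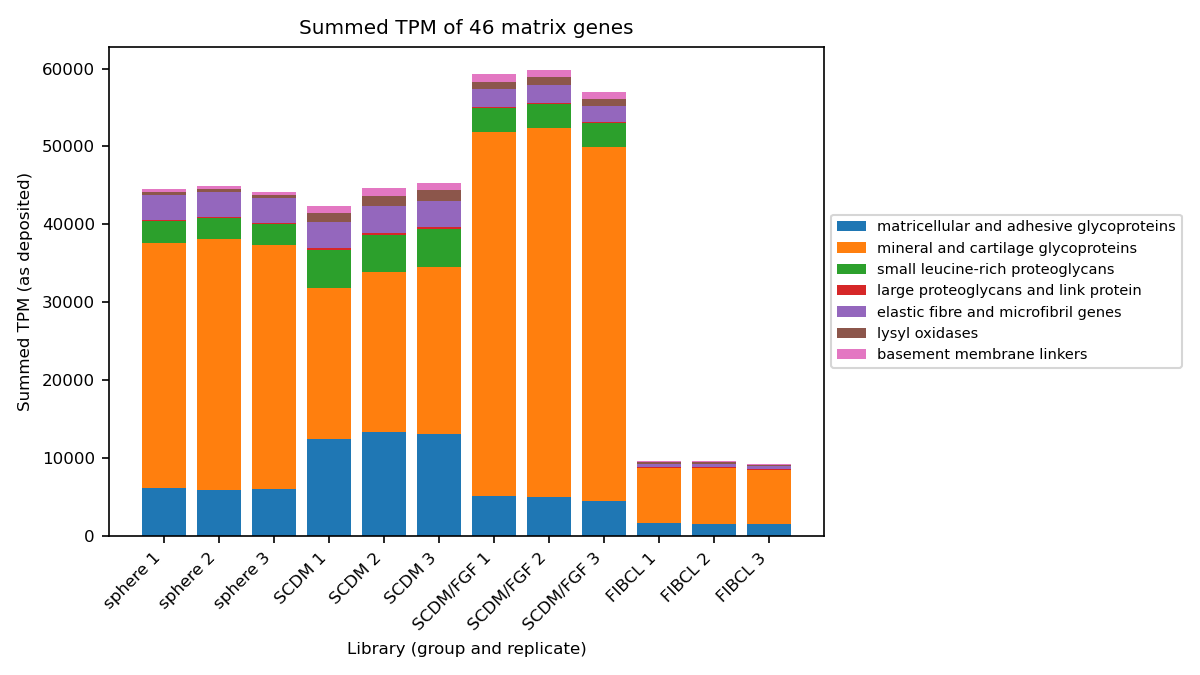
Summed TPM as deposited (vertical axis) of the 46 matrix genes in each of the 12 libraries (horizontal axis), stacked by group of genes. The 3 FIBCL bars reach 9246 to 9641 TPM, against 42409 to 59789 TPM in the other 9, and the mineral and cartilage group, chiefly Mgp and Spp1, is the tallest segment in every library.

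Of the 46 genes, 43 were tested; Comp, Matn1 and Cilp stayed under the filter of 1 TPM in 3 libraries, Chad passed it only through SCDM, and Hapln1 only with the sphere libraries counted. Against SCDM, 32 of the 43 fell in FIBCL and 1 rose, with a median of -3.48; over all genes tested the background was 9.97% called lower and 7.89% called higher. Against SCDM/FGF, 25 fell and 2 rose (median -2.69), where 9.8% of all genes were called lower and 6.97% higher. Against spheres, 23 fell and 2 rose (median -2.05), with 8.79% and 7.13% of all genes called lower and higher. These comparisons share the FIBCL libraries. The genes were chosen with earlier results of these data known, so their counts beside those of all genes are a description. Without Chad, which was tested because it was high in SCDM, 31 of 42 fell against SCDM. In 29 of the 43 genes tested, or 67.4%, every FIBCL library lay below all 9 others on scaled TPM, which held for 27.3% of all genes tested. For 2, Bcan and Loxl2, every FIBCL library lay above the other 9 on that scale, against 23.6% of all genes; as deposited, Bcan in FIBCL lay mostly below spheres and Loxl2 overlapped with SCDM/FGF.

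**Figure D2:**
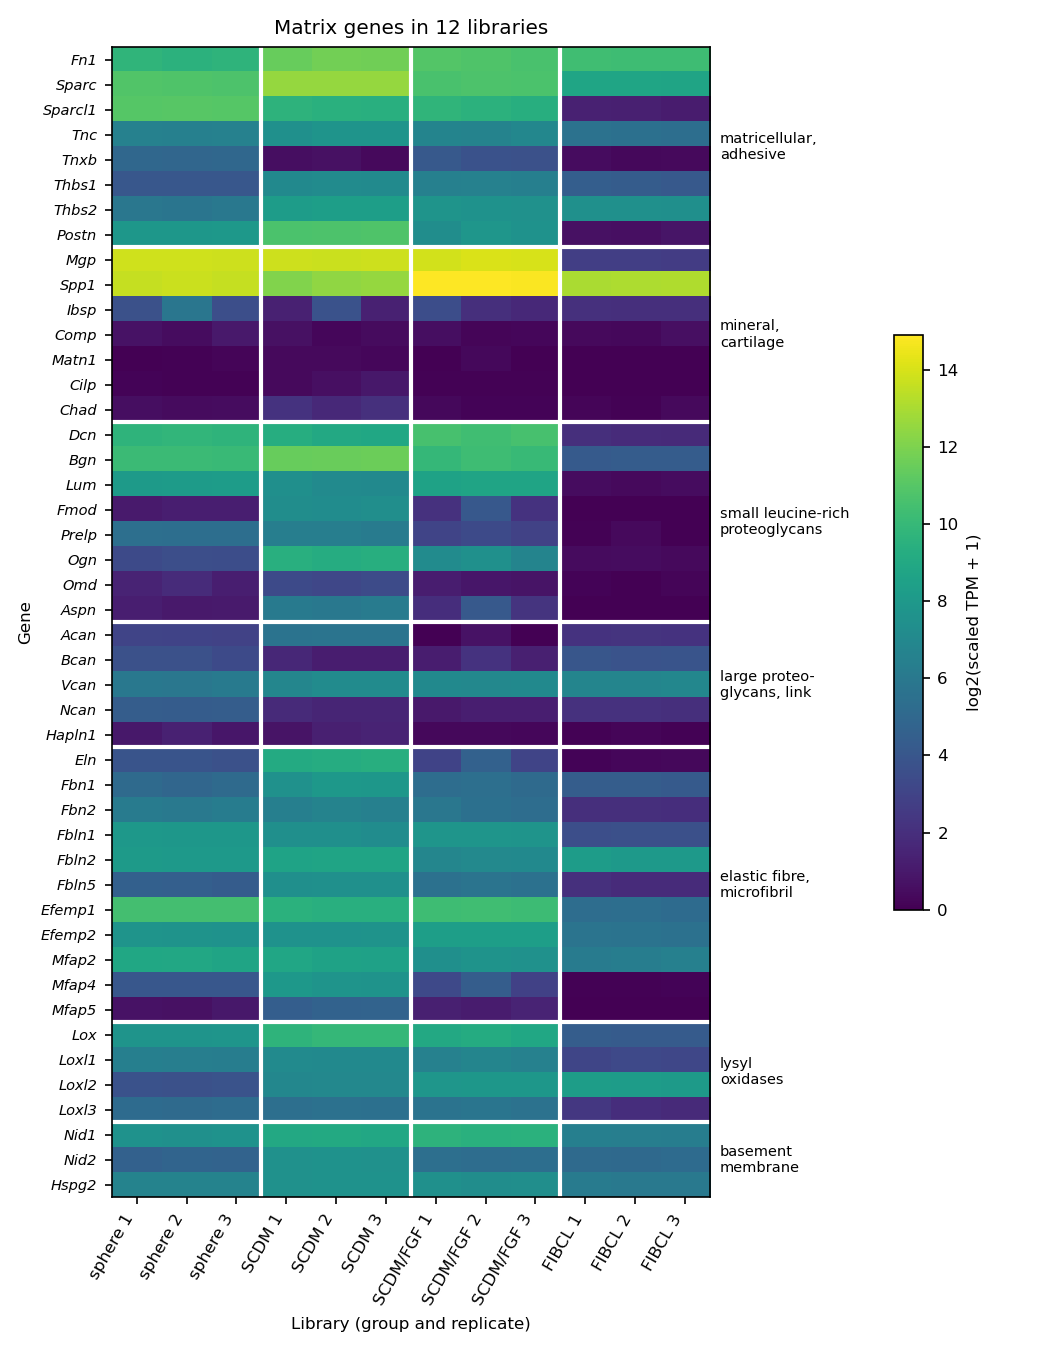
Level of each of the 46 genes (rows, grouped by role) in each of the 12 libraries (columns) as log2(scaled TPM + 1), from dark (0) to yellow (highest). Mgp is bright in the 9 sphere, SCDM and SCDM/FGF libraries and dark in FIBCL, Spp1 and Fn1 stay bright in all 12, and 16 genes are under 1 TPM in every FIBCL library.

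Promoters were read for the genes whose shared pattern or size of change the text turns on, from RefSeq on build GRCm38.p6; 30 of the 46 genes had an entry. Each printed window holds 250 bases before and 50 bases after a start site, given 5′ to 3′ on the strand of the gene, with the letters TATAAA or GGGCGG on either strand in capitals. Postn is shown because it had one of the deepest falls in FIBCL, Bgn as the most abundant small leucine-rich proteoglycan in SCDM, and Aspn, Omd and Ogn because they are neighbours on chromosome 13 and changed in the same direction between media. All 5 are on the plus strand: Postn at chr3:54360857-54361156 (the second of its 2 starts), Bgn at chrX:73483351-73483650, Aspn at chr13:49544193-49544492, Omd at chr13:49582212-49582511 and Ogn at chr13:49607765-49608064.
Postn: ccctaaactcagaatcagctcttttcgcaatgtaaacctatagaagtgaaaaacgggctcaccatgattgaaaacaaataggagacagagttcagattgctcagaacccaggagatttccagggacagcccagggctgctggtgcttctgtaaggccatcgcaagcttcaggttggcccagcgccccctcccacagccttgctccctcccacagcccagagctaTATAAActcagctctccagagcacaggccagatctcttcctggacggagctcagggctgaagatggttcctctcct
Bgn: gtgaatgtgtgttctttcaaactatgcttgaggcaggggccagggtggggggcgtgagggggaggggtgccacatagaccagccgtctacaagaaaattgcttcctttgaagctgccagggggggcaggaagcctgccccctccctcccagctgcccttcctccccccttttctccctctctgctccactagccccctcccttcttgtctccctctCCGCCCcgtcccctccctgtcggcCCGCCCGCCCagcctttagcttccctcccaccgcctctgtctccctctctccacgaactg
Aspn: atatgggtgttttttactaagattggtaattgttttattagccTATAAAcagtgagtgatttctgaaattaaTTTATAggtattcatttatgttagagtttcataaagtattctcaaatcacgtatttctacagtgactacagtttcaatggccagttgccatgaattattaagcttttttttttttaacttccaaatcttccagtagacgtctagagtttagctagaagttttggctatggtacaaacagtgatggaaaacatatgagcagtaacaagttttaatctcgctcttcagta
Omd: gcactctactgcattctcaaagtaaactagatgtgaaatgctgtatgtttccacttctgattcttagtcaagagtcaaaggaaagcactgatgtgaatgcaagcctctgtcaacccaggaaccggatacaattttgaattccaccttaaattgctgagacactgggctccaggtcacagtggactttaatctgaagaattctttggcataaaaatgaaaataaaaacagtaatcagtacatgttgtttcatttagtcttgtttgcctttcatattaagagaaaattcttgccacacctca
Ogn: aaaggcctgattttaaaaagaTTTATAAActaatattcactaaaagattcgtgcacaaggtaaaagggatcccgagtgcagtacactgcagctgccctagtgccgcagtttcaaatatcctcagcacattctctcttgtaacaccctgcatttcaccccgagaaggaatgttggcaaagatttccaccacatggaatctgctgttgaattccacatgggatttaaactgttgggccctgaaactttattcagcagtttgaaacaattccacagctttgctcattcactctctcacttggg

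In the Postn window the letters TATAAA began 26 bases before the start site, the usual place of a TATA box. Those of Aspn lay 207 and 178 bases before the start, and the overlapping pair of Ogn 229 and 227 bases before it. The window of Omd held neither motif, and that of Bgn held GGGCGG, read on the other strand, 34, 10 and 6 bases before the start. Over the 30 genes with a promoter, TATAAA was found in 9 (30%, against 15.7% of 27025 genes) and GGGCGG in 17 (56.7%, against 38.2%). The cAMP response element TGACGTCA was found in 0 (2.03% of all genes) and the TCF/LEF motif ATCAAAG in 0 (4.29%). The AP-1 motif TGANTCA was in 2 (6.67%, against 8.97%) and the TEAD motif GGAATG in 4 (13.3%, against 16.6%). Each motif was sought on both strands and none contains another; a match is a description of letters and not of binding.

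Among the 8 matricellular and adhesive glycoproteins, 5 fell in FIBCL against SCDM and 0 rose. Fibronectin (Fn1) links cells to the matrix through integrins. Fn1 was 1020.2, 889 and 981 TPM in spheres, 2984, 3684 and 3502 TPM in SCDM, 1945, 1792 and 1589 TPM in SCDM/FGF, and 1072, 1003 and 965 TPM in FIBCL. Its FIBCL values lay within the range of the sphere values or just above it as deposited, and below both other groups. After rescaling FIBCL lay above spheres, with scaled means of 1260 (SD 24.2) and 821 (SD 43.5). The limma difference of FIBCL from SCDM, -1.34 ± 0.0783 (SE, adjusted p = 2.79e-08), did not reach the size needed for a call. Between SCDM and spheres Fn1 rose by 1.96 ± 0.0783 (SE, adjusted p = 5.02e-09).

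Sparc, a collagen-binding matricellular protein, was 2169, 2049 and 2015 TPM in spheres, 6229, 6330.4 and 6273 TPM in SCDM, 1634, 1734 and 1637 TPM in SCDM/FGF, and 367, 346 and 316 TPM in FIBCL. SCDM was the highest group and FIBCL the lowest, without overlap with the others, while spheres and SCDM/FGF lay in between and overlapped after rescaling. The difference of FIBCL from SCDM was -3.79 ± 0.0451 (SE, adjusted p = 9.38e-14), and those from SCDM/FGF and spheres were -1.97 and -2.05. Its relative Sparcl1 (hevin), which astrocytes secrete and which promotes synapse formation, measured 2353, 2412 and 2415 TPM in spheres, 827, 747 and 710.2 TPM in SCDM, 887, 763 and 637 TPM in SCDM/FGF, and 1.29, 1.23 and 0.92 TPM in FIBCL. Sparcl1 was thus highest in spheres, lower in both control media and between 0.92 and 1.29 TPM in FIBCL. The difference of SCDM from spheres, -1.51, was called, but was between -1.46 and -1.49 and not called with upper-quartile scaling or without sphere library 2, SCDM library 2 or SCDM library 3. The scaled mean was 505-fold lower in FIBCL than in SCDM, a log2 difference of -8.21 ± 0.099 (SE, adjusted p = 1.04e-13).

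Periostin (Postn), a matricellular protein of fibrous tissue, gave 278, 268 and 294 TPM in spheres, 1733, 1855 and 1895 TPM in SCDM, 161, 227 and 189 TPM in SCDM/FGF, and 0.49, 0.43 and 0.58 TPM in FIBCL. SCDM was the highest group and all 3 FIBCL libraries lay under 1 TPM. The fall from SCDM to FIBCL was -10.05 ± 0.107 (SE, adjusted p = 4.46e-14), the second deepest of the 43 genes after Mgp, and those from SCDM/FGF and spheres were -6.88 and -7.21. Adding bFGF to SCDM went with a fall of Postn (log2 difference -3.17 ± 0.107 SE, adjusted p = 1.37e-09).

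Tenascin-C (Tnc), an adhesion-modulating glycoprotein of developing and injured tissue, was 110.4, 102 and 113 TPM in spheres, 184, 220.5 and 218 TPM in SCDM, 106, 102 and 115 TPM in SCDM/FGF, and 40.5, 36.2 and 31.3 TPM in FIBCL. Against SCDM it fell by 2.11 ± 0.078 (SE, adjusted p = 5.46e-10), while the differences from SCDM/FGF and spheres, -1.25 and -1.04, were not called. Tenascin-X (Tnxb), which spaces collagen fibrils, behaved otherwise with 36.5, 32.99 and 37.02 TPM in spheres, 0.49, 0.65 and 0.34 TPM in SCDM, 17.2, 12.5 and 11.8 TPM in SCDM/FGF, and 0.34, 0.19 and 0.24 TPM in FIBCL. It was near 0 in both SCDM and FIBCL, and the difference between these, -0.15 ± 0.126 (SE, adjusted p = 0.309), was not called. Tnxb fell from spheres to SCDM (log2 difference -4.42) and was higher in SCDM/FGF than in SCDM by 3.33 ± 0.126 (SE, adjusted p = 3.06e-09), 1 of only 2 of the 43 genes that rose with added bFGF. 

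The thrombospondins Thbs1 and Thbs2, which bind CD47 and latent growth factors and are known as synaptogenic signals from glia, were both lowest or near lowest in spheres. Thbs1 was 18.2, 17.4 and 18.4 TPM in spheres, 140.2, 156 and 146 TPM in SCDM, 92.1, 91.3 and 83.1 TPM in SCDM/FGF, and 17.4, 15.6 and 13.1 TPM in FIBCL. It fell from SCDM to FIBCL (log2 difference -2.81 ± 0.0638 SE, adjusted p = 1.17e-11), to about the level of spheres. As deposited, FIBCL lay at or below the sphere values, and after rescaling it lay above them by 0.29. For Thbs2 the libraries gave 69.4, 63.3 and 73.7 TPM in spheres, 312, 357 and 351 TPM in SCDM, 211, 194 and 183 TPM in SCDM/FGF, and 150.3, 144 and 131 TPM in FIBCL. Thbs2 was not called between FIBCL and SCDM (log2 difference -0.86 ± 0.0585 SE, adjusted p = 1.03e-07), and it was higher in FIBCL than in spheres by 1.57 ± 0.0585 (SE, adjusted p = 6.29e-10); without rescaling that value was 1.03 and was not called.

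The mineral and cartilage glycoproteins held the most abundant matrix transcripts. Matrix Gla protein (Mgp), an inhibitor of calcification, was 17111, 17021 and 16686 TPM in spheres, 14779, 14504 and 15068 TPM in SCDM, 15836, 16766 and 16318 TPM in SCDM/FGF, and 4.86, 4.80 and 4.11 TPM in FIBCL. It thus lay at 14504 TPM or more in all 9 libraries of spheres, SCDM and SCDM/FGF and at 4.86 TPM or less in FIBCL. Its scaled mean was 2440-fold lower in FIBCL than in SCDM, a log2 difference of -11.02 ± 0.0481 (SE, adjusted p = 4.44e-17) and the deepest fall of the 43 genes, and 2530-fold lower than in spheres. Mgp was not called in any comparison among spheres, SCDM and SCDM/FGF, where the differences lay between -0.05 and 0.23.

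Osteopontin (Spp1), a secreted phosphoprotein that binds integrins and is made by macrophages, glia and bone cells, did not follow Mgp. Spp1 was 14442, 15207 and 14677 TPM in spheres, 4658, 5980.4 and 6332 TPM in SCDM, 30983, 30643 and 29124 TPM in SCDM/FGF, and 6979, 7147 and 6931 TPM in FIBCL. FIBCL lay above SCDM by 0.72 ± 0.0972 (SE, adjusted p = 3.68e-05), which was not called, and fell against SCDM/FGF (log2 difference -1.79 ± 0.0972 SE, adjusted p = 1.53e-08). SCDM/FGF was the highest group, above SCDM by 2.52 ± 0.0972 (SE, adjusted p = 3.46e-09). The macrophage list had about the same sum in SCDM and SCDM/FGF (1325 to 1428 and 1314 to 1498 TPM); 0 of its 8 genes were called between them, and at the adjusted p alone 2 were higher and 4 lower in SCDM/FGF. In FIBCL, C1qa, C1qb, Csf1r and Cx3cr1 were each under 0.5 TPM while Cd68 was between 126 and 143 TPM, and the part of this list in the Spp1 values was not tested. An unclassified transcript shares 309 exonic bases with Spp1 on the same strand.

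Bone sialoprotein (Ibsp), from the same gene cluster on chromosome 5, ranged from 12.96 to 64.4 TPM in spheres, 1.65 to 13.5 TPM in SCDM, 2.26 to 10.6 TPM in SCDM/FGF and 2.31 to 2.69 TPM in FIBCL. Single libraries set it apart: sphere library 2 at 64.4 TPM, SCDM library 2 at 13.5 TPM and SCDM/FGF library 1 at 10.6 TPM. Against spheres Ibsp was called lower in FIBCL (-2.35), SCDM (-2.20) and SCDM/FGF (-1.97), and without sphere library 2 these became -1.62, -1.47 and -1.24 and were not called. Both control media also lost the call without a filter on low values and in fits of only the 2 groups compared. The SCDM call was lost as well without SCDM library 1 or 3. That of SCDM/FGF was lost as well with a pseudocount of 0.1 and without SCDM/FGF library 2 or 3. Chondroadherin (Chad), a leucine-rich protein of cartilage, was 0.56, 0.41 and 0.48 TPM in spheres, 3.65, 2.40 and 3.40 TPM in SCDM, 0.25, 0.09 and 0.09 TPM in SCDM/FGF, and 0.13, 0.04 and 0.21 TPM in FIBCL. It was above 1 TPM only in SCDM and passed the filter only through that group, so that its differences from SCDM, -1.77 in FIBCL and -1.79 in SCDM/FGF, are a description. The cartilage proteins Comp, Matn1 and Cilp stayed at or under 1.20 TPM in every library.

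All 8 small leucine-rich proteoglycans fell in FIBCL against SCDM, with a median of -6.97, 7 fell against SCDM/FGF and 5 against spheres. Their summed TPM was between 2732 and 2752 in spheres, 4785 and 4921 in SCDM and 3067 and 3143 in SCDM/FGF, against 17.5 to 18.4 in FIBCL, of which Bgn made up most. Among the fibroblast and mesenchymal markers, Pdgfra fell from between 62.2 and 68.1 TPM in SCDM to between 7.71 and 8.14 TPM in FIBCL and Pdgfrb from between 136 and 155 to between 2.44 and 2.95 TPM, 7 of 13 tested were called lower and Prrx1 and Prrx2 rose. The list summed to between 619 and 648 TPM in SCDM and between 261 and 276 TPM in FIBCL, and its part in these results was not tested.

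Decorin (Dcn), a collagen-fibril proteoglycan that binds TGF-beta, was 971, 1013 and 1002 TPM in spheres, 655, 539.8 and 506 TPM in SCDM, 1528, 1293 and 1484 TPM in SCDM/FGF, and 2.59, 2.04 and 1.89 TPM in FIBCL. Lumican (Lum), its neighbour on chromosome 10 at a distance of 47.0 kb, measured 331, 335 and 353 TPM in spheres, 179, 149.6 and 144 TPM in SCDM, 392, 412 and 419 TPM in SCDM/FGF, and 0.34, 0.26 and 0.30 TPM in FIBCL. Both had the same order of groups without overlap: SCDM/FGF above spheres, spheres above SCDM, and FIBCL at 2.59 TPM or less. From SCDM to FIBCL, Dcn fell by 7.17 ± 0.1 (SE, adjusted p = 3.06e-13) and the log2 difference of Lum was -6.76 ± 0.0769 (SE, adjusted p = 6.93e-14). Between SCDM/FGF and SCDM the differences of 1.43 and 1.46 were in the direction of SCDM/FGF but just short of the size for a call. Further along this cluster, Epyc, the proteoglycan epiphycan, was between 9.03 and 19.8 TPM in SCDM/FGF, 5.66 and 6.87 TPM in SCDM and at most 0.05 TPM in FIBCL, and Kera stayed at or under 0.10 TPM in all libraries.

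Biglycan (Bgn), the close relative of decorin, had another order. Bgn was 1382, 1319.7 and 1313 TPM in spheres, 2969.7, 3132 and 3252 TPM in SCDM, 998, 1215 and 1046 TPM in SCDM/FGF, and 15.1, 15.5 and 14.9 TPM in FIBCL. SCDM was the highest group, spheres and SCDM/FGF followed and overlapped after rescaling, and FIBCL kept 14.9 to 15.5 TPM, the only gene of the 8 above 3 TPM there. The fall against SCDM was -7.21 ± 0.071 (SE, adjusted p = 2.69e-14), a scaled mean 156-fold lower.

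Osteoglycin (Ogn), osteomodulin (Omd) and asporin (Aspn), which lie side by side on chromosome 13 with gaps of 14.9 and 15.2 kb and whose promoters are printed above, were each highest in SCDM. Ogn was 10.9, 12.5 and 12.3 TPM in spheres, 719, 638 and 683 TPM in SCDM, 149, 180.4 and 103 TPM in SCDM/FGF, and 0.29, 0.33 and 0.24 TPM in FIBCL. Omd, at a lower level, was 2.07, 3.00 and 1.64 TPM in spheres, 9.57, 8.45 and 10.1 TPM in SCDM, 1.27, 0.90 and 0.74 TPM in SCDM/FGF, and 0.09, 0 and 0.13 TPM in FIBCL. Aspn gave 1.62, 1.16 and 1.29 TPM in spheres, 72.4, 67.5 and 75.96 TPM in SCDM, 2.99, 16.8 and 3.74 TPM in SCDM/FGF, and 0, 0.03 and 0 TPM in FIBCL. From spheres to SCDM, Ogn rose by 5.85, Omd by 1.77 and Aspn by 5.00, and from SCDM to SCDM/FGF they fell, with log2 differences of -2.18, -2.33 and -3.30. Ecm2, the next gene of the cluster 11.7 kb from Aspn, was also highest in SCDM, with 12.0 to 13.8 TPM in SCDM, 1.93 to 2.14 TPM in SCDM/FGF and at most 0.16 TPM in FIBCL. In FIBCL, Ogn was at most 0.33 TPM, Omd at most 0.13 TPM and Aspn at most 0.03 TPM, and 2 of its 3 libraries listed Aspn at 0.

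Fibromodulin (Fmod), which regulates collagen fibril thickness, was 1.34, 1.62 and 1.62 TPM in spheres, 164, 162 and 173 TPM in SCDM, 3.43, 16.4 and 3.43 TPM in SCDM/FGF, and 0, 0.02 and 0.02 TPM in FIBCL. Prelp, which anchors basement membranes to connective tissue and lies 116 kb from Fmod on chromosome 1, was 51.2, 46.5 and 48.6 TPM in spheres, 87.03, 87.6 and 77.6 TPM in SCDM, 7.53, 8.94 and 6.59 TPM in SCDM/FGF, and 0.04, 0.23 and 0.02 TPM in FIBCL. Both were highest in SCDM and fell in FIBCL, with log2 differences of -7.28 ± 0.409 (SE, adjusted p = 1.97e-08) for Fmod and -6.17 ± 0.111 (SE, adjusted p = 1.93e-12) for Prelp. They parted in SCDM/FGF, where Prelp fell below spheres (log2 difference -2.30 ± 0.111 SE, adjusted p = 2.11e-08) and Fmod was called higher than spheres at 1.61. That Fmod call rested on SCDM/FGF library 2, which at 16.4 TPM stood apart from the 3.43 TPM of the other two, and without it the value was 0.94 and was not called. The same held for Aspn, at 1.69 with that library and 1.01 without it. The Fmod call was also lost without rescaling, at 1.47, and in the fit of only the 2 groups compared, at 1.61.

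**Figure D3:**
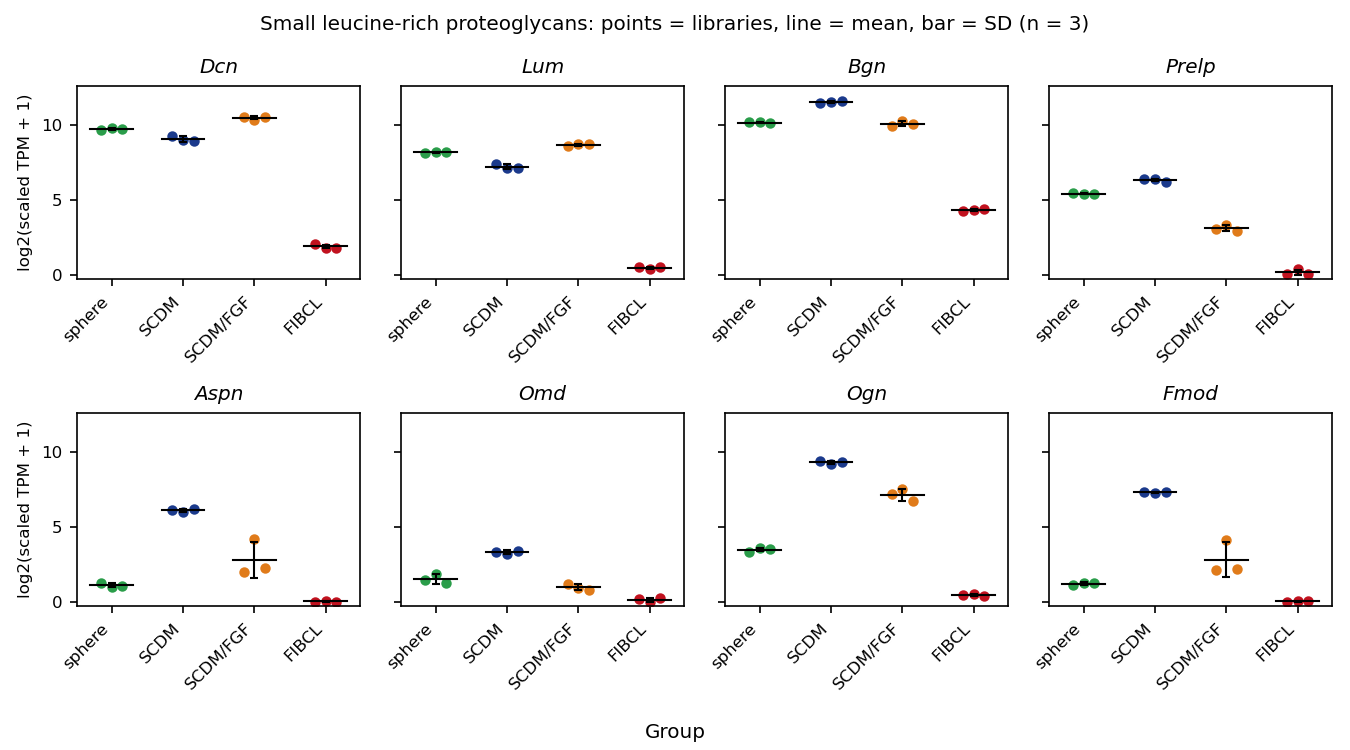
Each of the 8 small leucine-rich proteoglycans by group (horizontal axis) as log2(scaled TPM + 1) (vertical axis); points are libraries, the horizontal line is the mean and the bar the SD (n = 3). FIBCL is at or near 0 for all but Dcn and Bgn, Dcn and Lum are highest in SCDM/FGF, and Aspn, Omd, Ogn, Fmod, Bgn and Prelp are highest in SCDM.

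The large proteoglycans were the group with the most mixed changes. Of 5 genes, 1 fell (Acan) and 1 rose (Bcan) in FIBCL against SCDM, and 0 fell and 2 rose against SCDM/FGF. Brevican (Bcan), a lectican of perineuronal matrix in the central nervous system, was 14.3, 13.9 and 11.04 TPM in spheres, 2.25, 1.41 and 1.40 TPM in SCDM, 1.31, 3.44 and 1.45 TPM in SCDM/FGF, and 12.6, 10.4 and 10.4 TPM in FIBCL. It was at a like level in spheres and FIBCL, which differed by 0.29, and low in both control media; FIBCL lay above SCDM by 2.53 ± 0.23 (SE, adjusted p = 1.33e-06) and above SCDM/FGF by 2.33 ± 0.23 (SE, adjusted p = 2.85e-06). Neurocan (Ncan), the other nervous system lectican, was between 22.0 and 23.8 TPM in spheres and between 1.04 and 2.78 TPM in all other libraries. It fell against spheres in SCDM, SCDM/FGF and FIBCL, with log2 differences of -2.77, -3.20 and -2.28, and FIBCL was not called against either control medium.

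Aggrecan (Acan), the bulk proteoglycan of cartilage, was 8.54, 8.17 and 7.98 TPM in spheres, 52.5, 56.6 and 54.8 TPM in SCDM, 0.01, 0.68 and 0.01 TPM in SCDM/FGF, and 2.98, 3.09 and 2.73 TPM in FIBCL. SCDM was the highest and SCDM/FGF the lowest group, with 2 of its 3 libraries at 0.01 TPM. Acan fell in FIBCL against SCDM (log2 difference -3.50 ± 0.164 SE, adjusted p = 4.06e-09) and rose against SCDM/FGF by 1.96 ± 0.164 (SE, adjusted p = 6.87e-07). The sum of the chondrocyte and osteoblast list, most of it Col2a1, was likewise highest in SCDM. It was 906 to 1001 TPM in spheres and 5353 to 5670 TPM in SCDM. In SCDM/FGF it was 211 to 280 TPM and in FIBCL 40.0 to 44.5 TPM. Of 9 genes tested, 6 were called lower in FIBCL than in SCDM and 0 higher. Between SCDM and spheres the list was mixed, with 3 called higher in SCDM, 0 lower and a median of -0.27. At the adjusted p alone, 3 were higher and 3 lower in SCDM than in spheres. In SCDM/FGF, 3 were called lower than in SCDM and 0 higher (median -0.71). Snorc was at 0 in all 12, and the part of this list in the Acan result was not tested.

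Versican (Vcan), the widely made large proteoglycan of loose connective tissue and embryonic nerve, was 72.5, 66.9 and 81.7 TPM in spheres, 119, 155 and 156 TPM in SCDM, 139, 124 and 134 TPM in SCDM/FGF, and 91.1, 90.5 and 90.9 TPM in FIBCL. It was lowest in spheres, and FIBCL differed from SCDM by -0.24 ± 0.0953 (SE, adjusted p = 0.0394) and from SCDM/FGF by -0.23, neither called. The link protein Hapln1, which ties these proteoglycans to hyaluronan, ranged from 1.04 to 1.87 TPM in spheres, 0.78 to 1.85 TPM in SCDM, 0.18 to 0.25 TPM in SCDM/FGF and 0.06 to 0.12 TPM in FIBCL. It was not called in any comparison.

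Of the 11 elastic fibre and microfibril genes, 10 fell in FIBCL against SCDM, 7 against SCDM/FGF and 8 against spheres, and 0 rose. Elastin (Eln), the core protein of the fibre, was 16.2, 15.7 and 14.01 TPM in spheres, 590.3, 638 and 681 TPM in SCDM, 7.09, 23.2 and 7.34 TPM in SCDM/FGF, and 0.10, 0.18 and 0.19 TPM in FIBCL. SCDM lay far above every other group, and FIBCL was at or under 0.19 TPM. The fall from SCDM was -8.97 ± 0.328 (SE, adjusted p = 4.84e-10) for FIBCL and -5.67 ± 0.328 (SE, adjusted p = 9.39e-08) for SCDM/FGF, in which library 2 at 23.2 TPM stood apart from the 7.09 and 7.34 TPM of the others.

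Mfap4, a microfibril-associated protein that binds elastin, had the same order of group means with 18.1, 17.9 and 18.5 TPM in spheres, 263, 226 and 216 TPM in SCDM, 8.82, 19.9 and 6.38 TPM in SCDM/FGF, and 0.04, 0.04 and 0.09 TPM in FIBCL. Mfap5, another microfibril component, was 0.76, 0.67 and 1.09 TPM in spheres, 21.6, 26.4 and 27.7 TPM in SCDM, 1.47, 1.18 and 1.72 TPM in SCDM/FGF, and 0, 0 and 0 TPM in FIBCL. SCDM was the only group above 2 TPM for Mfap5, and all 3 FIBCL libraries listed it at 0. Fibulin-5 (Fbln5), which brings elastin to microfibrils, was 27.4, 25.5 and 22.5 TPM in spheres, 183, 189.9 and 186 TPM in SCDM, 47.5, 51.04 and 46.05 TPM in SCDM/FGF, and 2.69, 2.12 and 1.96 TPM in FIBCL. All 3 genes were highest in SCDM without overlap and fell in SCDM/FGF against SCDM, with log2 differences of -4.27 (Mfap4), -3.33 (Mfap5) and -1.84 (Fbln5). Against SCDM the log2 difference of FIBCL was -7.69 ± 0.283 (SE, adjusted p = 5.04e-10) for Mfap4 and -5.54 ± 0.0842 (SE, adjusted p = 5.68e-13) for Fbln5. Smooth muscle is among the makers of elastic fibres, and the smooth muscle and pericyte list was mixed. In it, Acta2 was 68.2 to 100.0 TPM in SCDM, 5.21 to 7.23 TPM in SCDM/FGF and at most 1.75 TPM in the other libraries. Myh11 stayed at or under 2.17 TPM in all libraries. The list of 8 genes summed to between 230 and 315 TPM in SCDM and 34.1 and 55.6 TPM in SCDM/FGF. Its sum was 19.3 to 20.3 TPM in spheres and 15.3 to 17.9 TPM in FIBCL. Of its 7 genes tested, 2 were lower and 1 higher in FIBCL than in SCDM (median -0.99), 2 higher and 1 lower in SCDM than in spheres (median 0.02), and 2 lower and 1 higher in SCDM/FGF than in SCDM (median -0.16). The part of this list in the elastic fibre results was not tested.

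Fibrillin-1 (Fbn1), the main microfibril protein, was 40.8, 33.1 and 41.96 TPM in spheres, 194, 262 and 248 TPM in SCDM, 40.7, 41.96 and 34.2 TPM in SCDM/FGF, and 16.99, 16.1 and 13.7 TPM in FIBCL. It was highest in SCDM and at a like level in spheres and SCDM/FGF. Fibrillin-2 (Fbn2), the fibrillin of development, was 87.3, 74.03 and 89.2 TPM in spheres, 90.5, 109 and 94.3 TPM in SCDM, 60.1, 44.6 and 38.4 TPM in SCDM/FGF, and 2.59, 2.47 and 2.18 TPM in FIBCL. Against spheres, FIBCL separated them by call: Fbn2 fell by 4.17 ± 0.126 (SE, adjusted p = 1.11e-10), while Fbn1 differed by -0.73 ± 0.114 (SE, adjusted p = 0.000135), which was not called; the difference between these was not tested. Against SCDM both fell, with log2 differences of -3.44 (Fbn1) and -4.54 (Fbn2). Opposite-strand exons of other genes overlap Fbn1 by 2442 bases and Mfap4 by 89 bases, and how strand entered the counting is not clear from the methods.

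Fibulin-1 (Fbln1), which binds fibronectin and basement membrane, was 289, 275 and 282 TPM in spheres, 183, 181 and 159.8 TPM in SCDM, 225, 216 and 203 TPM in SCDM/FGF, and 9.11, 9.52 and 8.61 TPM in FIBCL. Efemp1 (fibulin-3) was the most abundant elastic fibre gene in 3 groups, at 1644, 1639 and 1652 TPM in spheres, 762, 735 and 721 TPM in SCDM, 1249, 1265 and 1171 TPM in SCDM/FGF, and 33.1, 33.7 and 27.2 TPM in FIBCL. Efemp2 (fibulin-4), which brings lysyl oxidase to elastin, was 252, 233 and 234 TPM in spheres, 207, 208 and 213 TPM in SCDM, 339, 327 and 319 TPM in SCDM/FGF, and 43.5, 41.7 and 35.6 TPM in FIBCL. Each of the 3 lay in FIBCL below the 9 other libraries, and fell against SCDM with log2 differences of -3.75 (Fbln1), -4.13 (Efemp1) and -1.96 (Efemp2). Among spheres, SCDM and SCDM/FGF none of them was called.

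Fibulin-2 (Fbln2) was the exception in this group, with 324, 295 and 307 TPM in spheres, 427, 455 and 444 TPM in SCDM, 115, 129.8 and 130.0 TPM in SCDM/FGF, and 253, 218 and 201 TPM in FIBCL. SCDM/FGF was its lowest group, with a log2 difference from SCDM of -1.73 ± 0.0669 (SE, adjusted p = 3.47e-09). FIBCL lay between the control media, and its differences of -0.58 from SCDM and 1.15 from SCDM/FGF were not called. Mfap2, a microfibril glycoprotein that binds fibrillins, was 552, 557 and 496 TPM in spheres, 479, 412 and 386 TPM in SCDM, 177, 198 and 181 TPM in SCDM/FGF, and 61.9, 64.4 and 67.6 TPM in FIBCL. It fell in FIBCL against SCDM (log2 difference -2.30 ± 0.0959 SE, adjusted p = 1.51e-09) and against spheres (-2.49), and the difference of -1.19 from SCDM/FGF was not called.

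**Figure D4:**
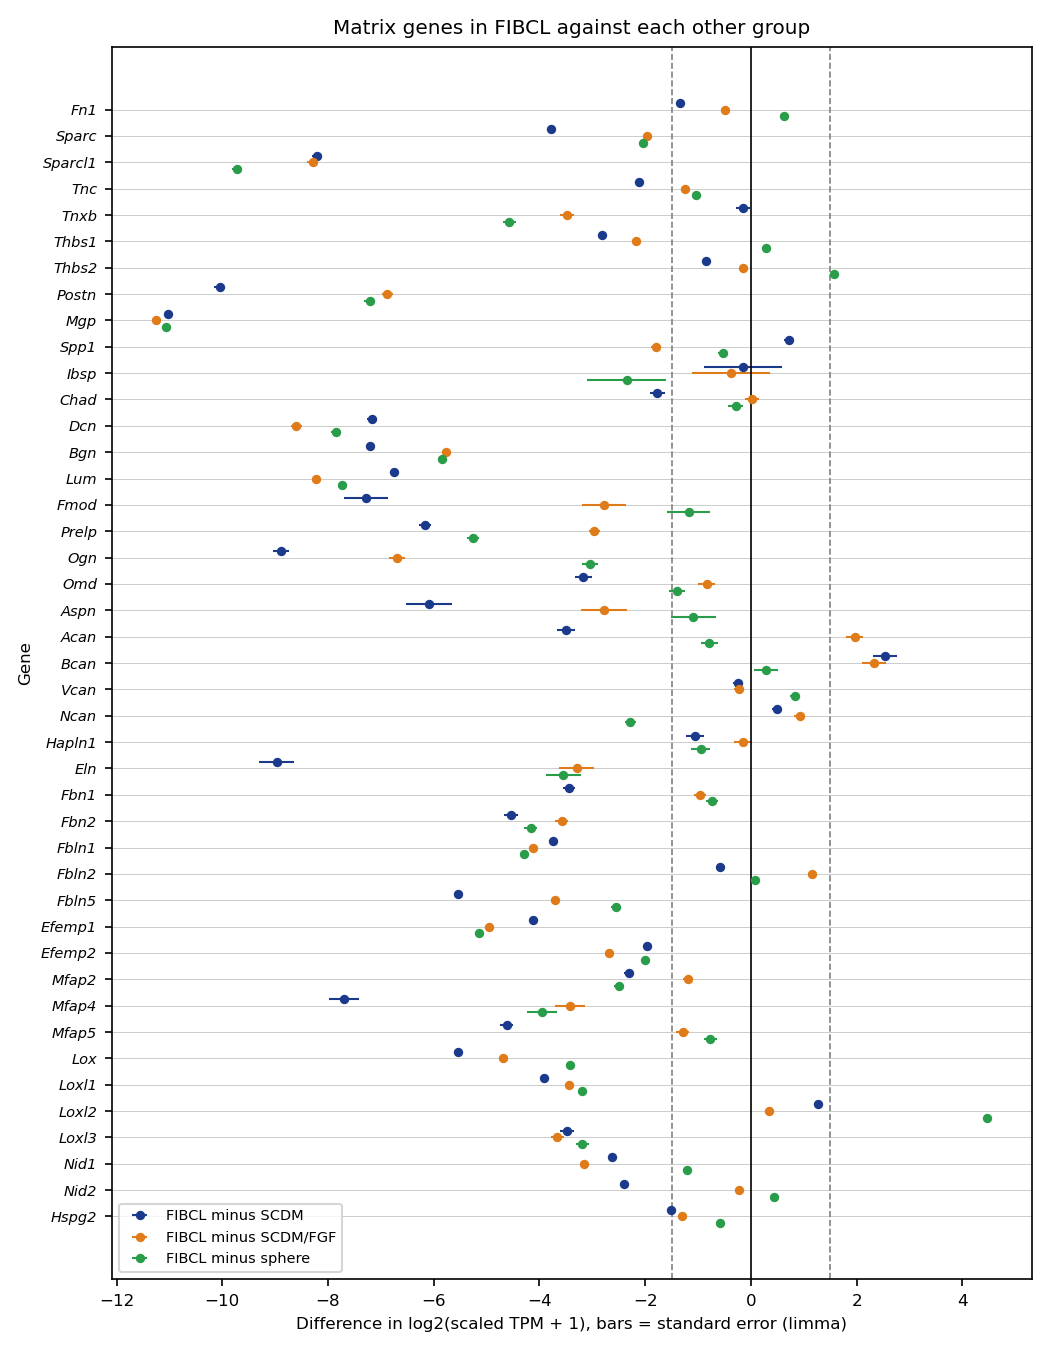
Difference in log2(scaled TPM + 1) of FIBCL from SCDM (blue), SCDM/FGF (orange) and spheres (green) for the 43 genes tested (rows); bars are SE (limma) and the dashed lines mark the size of 1.5 needed for a call. Mgp lies near -11 in all 3 comparisons, most genes lie to the left of the dashed line, and Bcan, Acan and Loxl2 are among the few to the right of 1.5 in any comparison.

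The lysyl oxidases split. Lox, which cross-links collagen and elastin, was 249.6, 243 and 258 TPM in spheres, 881, 1045 and 1052 TPM in SCDM, 529, 577 and 457 TPM in SCDM/FGF, and 16.8, 15.2 and 14.1 TPM in FIBCL. Loxl1, the form tied to elastic fibre upkeep, was 102, 96.05 and 93.5 TPM in spheres, 147, 145 and 141 TPM in SCDM, 96.6, 107 and 90.96 TPM in SCDM/FGF, and 6.33, 7.17 and 6.17 TPM in FIBCL. Loxl3, another member of the family, was 43.2, 40.2 and 45.02 TPM in spheres, 44.1, 50.1 and 47.8 TPM in SCDM, 51.1, 53.6 and 47.2 TPM in SCDM/FGF, and 3.55, 2.30 and 1.84 TPM in FIBCL. For these 3, FIBCL was below all 9 other libraries, and they fell against SCDM with log2 differences of -5.54 (Lox), -3.91 (Loxl1) and -3.48 (Loxl3).

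Loxl2, which acts on basement membrane collagen, was 14.7, 13.5 and 15.7 TPM in spheres, 125, 133 and 132 TPM in SCDM, 234, 235 and 233 TPM in SCDM/FGF, and 265, 242 and 211 TPM in FIBCL. It was lowest in spheres and higher in all 3 plated groups. FIBCL lay above spheres by 4.47 ± 0.0535 (SE, adjusted p = 1e-13), SCDM by 3.20 and SCDM/FGF by 4.13. FIBCL and SCDM/FGF overlapped as deposited, and after rescaling FIBCL lay above the 9 other libraries; the difference from SCDM of 1.27 ± 0.0535 (SE, adjusted p = 1.62e-09) was not called. Summed over the 4 genes, lysyl oxidase TPM was 393 to 412 in spheres, 1197 to 1373 in SCDM, 829 to 974 in SCDM/FGF and 233 to 292 in FIBCL, where Loxl2 made up most of it. Opposite-strand exons of Htra2, at up to 47.9 TPM, overlap Loxl3 by 535 bases.

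The basement membrane linkers, which join laminin and collagen IV networks, all fell in FIBCL against SCDM. Nidogen-1 (Nid1) was 233, 207 and 234 TPM in spheres, 533, 569 and 517 TPM in SCDM, 802, 705 and 725 TPM in SCDM/FGF, and 71.9, 67.2 and 59.4 TPM in FIBCL. Its highest group was SCDM/FGF and its lowest FIBCL, with falls of -2.62 ± 0.0546 (SE, adjusted p = 6.54e-12) against SCDM and -3.16 against SCDM/FGF. Nidogen-2 (Nid2) was 27.6, 30.97 and 30.8 TPM in spheres, 196, 205 and 197 TPM in SCDM, 43.3, 38.6 and 40.5 TPM in SCDM/FGF, and 29.4, 26.7 and 27.7 TPM in FIBCL. SCDM stood alone, and Nid2 fell against it in FIBCL (-2.40) and likewise in SCDM/FGF (-2.18). Spheres and FIBCL overlapped as deposited, and after rescaling FIBCL lay above spheres by 0.44. Exons of Rtraf, on the opposite strand and at up to 162 TPM, overlap Nid2 by 437 bases.

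Perlecan (Hspg2), the heparan sulfate proteoglycan of basement membranes, was 121, 113 and 121 TPM in spheres, 195, 211 and 202 TPM in SCDM, 184, 154 and 163 TPM in SCDM/FGF, and 60.8, 51.5 and 48.9 TPM in FIBCL. FIBCL was the lowest group, and the difference from SCDM of -1.51 ± 0.0621 (SE, adjusted p = 1.32e-09) was just past the size for a call. It was between -1.46 and -1.49 and not called with upper-quartile scaling and when SCDM library 2, FIBCL library 2 or FIBCL library 3 was left out.

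The control media themselves differed widely in these genes. Against spheres, 18 of the 43 rose in SCDM and 5 fell (median 1.08), where 3.76% of all genes were called higher and 2.41% lower. In SCDM/FGF, 7 rose and 5 fell (median 0.22), where 4.12% of all genes were called higher and 1.92% lower. These comparisons share the sphere libraries. With bFGF added to SCDM, 16 genes fell and 2, Tnxb and Spp1, rose (median -0.85), against 1.97% of all genes called lower and 2.88% higher. The 16 were 5 of the 8 small leucine-rich proteoglycans, 6 of the 11 elastic fibre genes, and Sparc, Postn, Chad, Acan and Nid2; without Chad there were 15 of 42. On scaled means, SCDM was the highest group for 29 of the 46 genes, SCDM/FGF for 7, spheres for 8 and FIBCL for 2. The 46 include the untested Comp, Matn1 and Cilp, and these counts were not made over all genes, so no background share can be given.

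**Figure D5:**
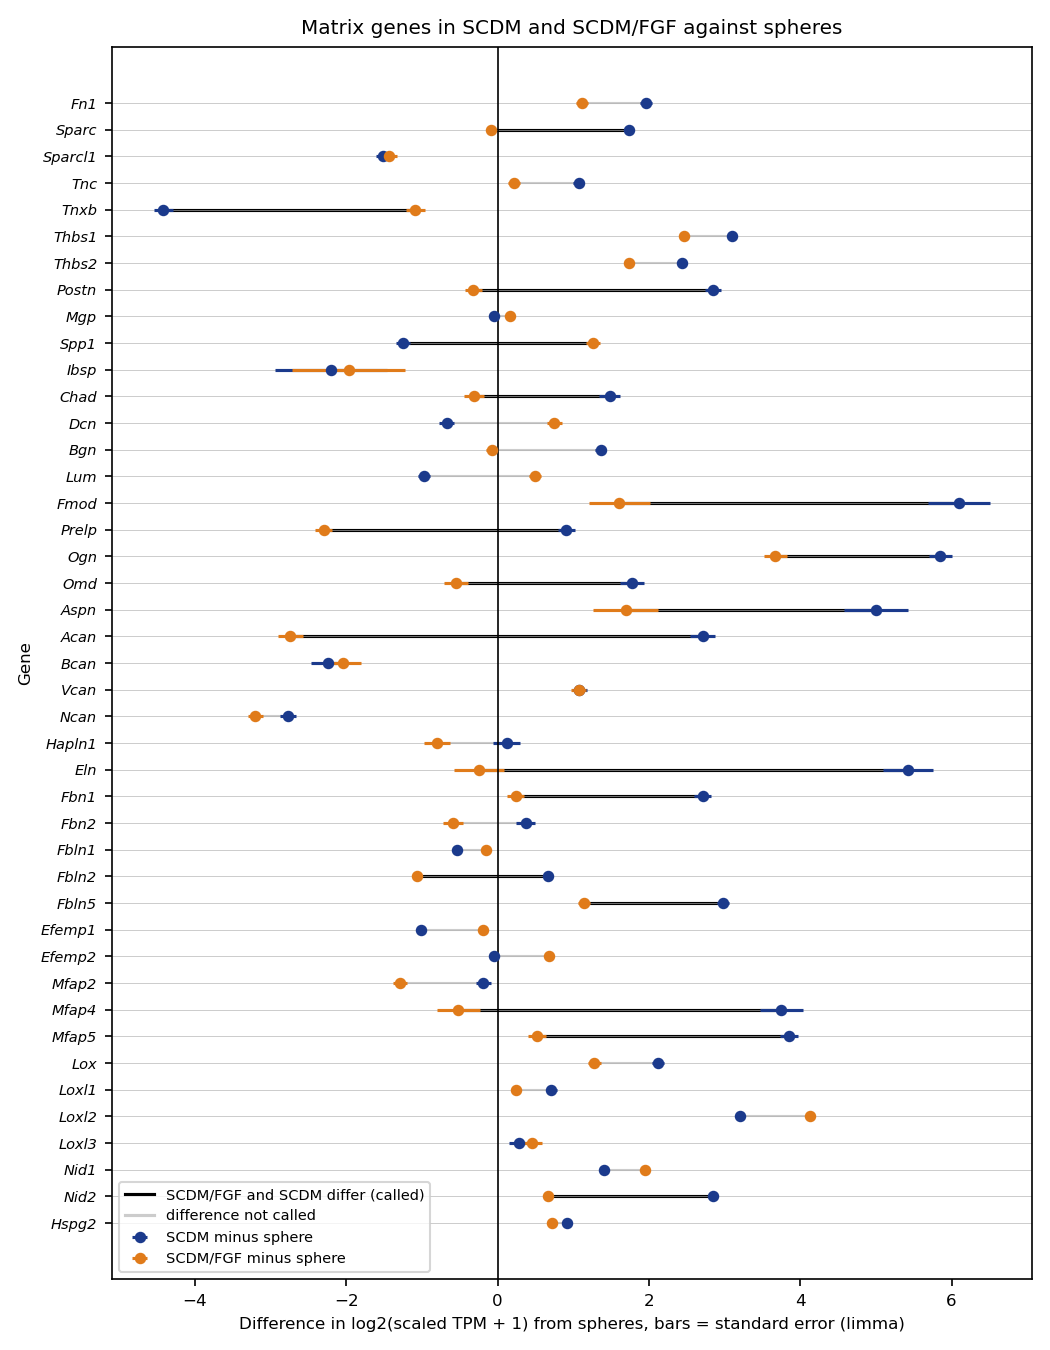
Difference in log2(scaled TPM + 1) from spheres of SCDM (blue) and SCDM/FGF (orange) for the 43 genes tested (rows); bars are SE (limma), and a black line joins the points where the 2 media differed by a call. Eln, Acan and Fmod have the longest black lines, from 5.42 to -0.25, from 2.71 to -2.74 and from 6.10 to 1.61, and Tnxb and Spp1 are the only joined genes with the SCDM/FGF point on the right.

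Genes of the same pathway outside the 46 were less uniform. Of 50 other matrix glycoproteins, 42 were tested, of which 22 fell and 4 rose in FIBCL against SCDM, with a median of -1.60. The deepest falls were Dmp1, a phosphoprotein of bone matrix in the cluster with Sparcl1, Ibsp and Spp1, at -7.43, and Abi3bp at -6.45. The highest rises were Crtac1 at 4.37 and Ccn3 at 2.95. Dmp1 was between 892 and 917 TPM in spheres, 174 and 235 TPM in SCDM, 447 and 514 TPM in SCDM/FGF, and 0.07 and 0.16 TPM in FIBCL, while Spp1 in the same cluster stayed at 6931 TPM or more in FIBCL.

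Of 30 other proteoglycans and link proteins, 24 were tested, with 4 lower and 3 higher (median -0.30), beside the same shares of all genes as above. Hapln4, the brain link protein, lies 2.22 kb from Ncan; it rose by 4.74, from at most 0.19 TPM in SCDM to between 21.4 and 23.7 TPM in FIBCL, while Ncan was not called. Spock1, a testican, rose by 3.07, and Epyc and Cspg4 (NG2) fell (-2.77 and -2.68). Of 48 genes of glycosaminoglycan and hyaluronan synthesis and turnover, 43 were tested, with 5 lower and 2 higher (median 0.01), near the shares of 9.97% and 7.89% over all genes. In that list the sulfotransferases Chst11 and Hs3st1 rose by 2.51 and 2.15, and the hyaluronan-degrading Cemip and the sulfotransferase Hs6st2 fell (-4.80 and -2.72). Over all 109 genes tested of these 3 lists, 31 fell and 9 rose, with a median of -0.33, against -3.48 for the 43 described above. Of the 109, 43 came from the synthesis and turnover list. The genes and lists were chosen with earlier results of these data known, so this contrast is a description.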

How the data were processed

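RNA-seq libraries (poly(A), TruSeq) of 12 samples of cultured mouse cochlear glial cells were compared, 3 in each group. Reads had been trimmed by the authors (SeqPrep, then Sickle), aligned by TopHat in orientation mode and quantified by RSEM; versions, genome build and annotation are not given in the sources used here. The deposited values were TPM with 2 decimals: their unit is not stated, the methods speak of fragments per kilobase, and each column sums to between 899295 and 994845. FIBCL columns are headed FIBC, also the name of the mixture without LIF, and were taken as FIBCL from the labels. The depth is unknown, so no counting error can be given.

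Genes at 1 TPM or more in at least 3 libraries were kept (16016). Libraries were rescaled by the trimmed mean (30% from each end) of log2 ratios over 8434 genes at 5 TPM or more in all 12, and log2(scaled TPM + 1) was fitted with limma 3.58.1 (R 4.3.3; trend, empirical Bayes) in a single model of 4 groups with 6 comparisons and Benjamini-Hochberg adjustment over all 16016 genes. The fit was tested on simulated data. Alternatives were other scaling, pseudocount, filters, thresholds, fits of only the 2 groups compared, a replicate block and leaving out each library. Per-library values are given for genes with a mean of 20 TPM or more over the 12 samples, called between SCDM/FGF and SCDM, or with the largest or smallest called change between FIBCL and SCDM of their group of genes, and of each other matrix list the 2 highest and 2 lowest called changes are named. Ecm2, Kera and Optc were named outside this rule, as neighbours, after their values were seen. Overlaps and distances of genes came from GENCODE M21 (GRCm38), and promoters from RefSeq (GRCm38.p6). The genes and lists were chosen with earlier results of these data known.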

Additional observations from a re-analysis of the deposited data

Results flagged for a closer look

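Whether the change from spheres differed between SCDM and SCDM/FGF was tested directly, as the difference between the 2 media in the same limma model, and for 18 of the 43 genes tested this difference was called, where 2.88% of all genes were called higher and 1.97% lower. For 2 of them the change was higher in SCDM/FGF, by 3.33 on the log2 scale for Tnxb and 2.52 for Spp1. For the other 16 it was lower, and all these comparisons share the SCDM and SCDM/FGF libraries. Among matricellular genes the difference was -3.17 for Postn and -1.83 for Sparc. For the small leucine-rich proteoglycans it was -4.49 for Fmod, -3.30 for Aspn, -3.21 for Prelp, -2.33 for Omd and -2.18 for Ogn. The elastic fibre genes gave -5.67 for Eln, -4.27 for Mfap4, -3.33 for Mfap5, -2.47 for Fbn1, -1.84 for Fbln5 and -1.73 for Fbln2. The last 3 were -5.45 for Acan, -2.18 for Nid2 and -1.79 for Chad, which passed the filter only through SCDM. SCDM/FGF library 2 was the highest of its group, on scaled TPM, and so the nearest to SCDM, for 11 of these 16 genes, among them Fmod, Aspn, Eln, Mfap4, Acan, Postn and Ogn. All 16 stayed called when it was left out. The order of these libraries was not counted over all genes, so no background share can be given.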

How the results depend on the processing

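Of 1792 values of the 138 called differences under the alternatives, 1766 kept their direction and their call, 26 kept the direction and lost the call, and 0 reversed. Those lost concerned Hspg2, Thbs2, Sparcl1, Ibsp, Fmod and Aspn. With the adjusted p alone, without the fold limit, the genes called higher in FIBCL numbered 4 against SCDM, 5 against SCDM/FGF and 6 against spheres. By the same rule 10 were lower and 28 higher in SCDM than in spheres, 15 lower and 22 higher in SCDM/FGF than in spheres, and 28 lower and 10 higher in SCDM/FGF than in SCDM. That rule calls many genes: 32.5% to 32.9% of all genes were higher in FIBCL in the 3 comparisons, 25.8% lower and 24.5% higher in SCDM than in spheres, 25.4% and 25% in SCDM/FGF than in spheres, and 21.3% and 21.8% in SCDM/FGF than in SCDM. The 10 lower in SCDM than in spheres and the 10 higher in SCDM/FGF than in SCDM, each 23.3% of 43, were thus near the background. With a limit of 1 on the log2 fold change, 2 were higher in FIBCL than in SCDM, 9 lower and 12 higher in SCDM/FGF than in spheres, and 4 higher in SCDM/FGF than in SCDM, where 13.2%, 4.73%, 7.39% and 5.73% of all genes were called. Without rescaling, 1 was higher in FIBCL than in spheres. In SCDM/FGF against spheres, 5 were then higher and 7 lower, where 567 and 437 of all 16016 genes were called. Single libraries left out gave 5 to 7 higher and 4 to 6 lower in that comparison. Leaving out each library in turn gave 3 to 5 genes lower in SCDM than in spheres (3 without sphere library 2 or SCDM library 3) and 2 to 4 higher in SCDM/FGF than in SCDM (4 without SCDM library 1); the count lower in FIBCL than in SCDM was 31 to 32. The cause of these shifts was not tested.

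No pairing of the libraries by the replicate numbers that the groups share was detected. Deviations from group means correlated between -0.121 and 0.098 in 18 same-numbered pairs (median 0.023). In 36 others they correlated between -0.073 and 0.12 (median -0.006). With 3 libraries per group this check cannot exclude a shared origin. A replicate block left all 138 calls in place. Depth is unknown, so how far sampling noise limits genes under 1 TPM cannot be given.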

Other observations

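Neighbouring matrix genes did not share one level. In the cluster of Sparcl1, Dmp1, Ibsp and Spp1 on chromosome 5, Sparcl1 and Dmp1 were at most 1.29 and 0.16 TPM in FIBCL, where Spp1 lay at 6931 TPM or more. Optc, 2.30 kb from Prelp on chromosome 1, stayed at or under 1.23 TPM in every library, while Prelp reached 87.6 TPM in SCDM. Endothelial markers (6 genes) summed to between 260.0 and 301 TPM in SCDM/FGF, 45.9 and 53.8 TPM in SCDM, 126 and 130.0 TPM in spheres and 10.4 and 11.2 TPM in FIBCL, and melanocyte markers (5 genes) to at most 2.5 TPM.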
